A study of Mus musculus with 6 samples.

Results

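The nuclear-encoded respiratory chain genes were followed across the immune cells of mouse colon tumours. The members were all genes whose symbols begin with Nduf, Uqcr or Atp5, the mitochondrially encoded genes left out, which gave 72 of the 32285 genes counted. They were 47 Nduf, 8 Uqcr and 17 Atp5 genes. By role, 7 were core subunits of complex I, 30 its supernumerary subunits and 8 its assembly factors. Another 8 were complex III subunits, 17 were ATP synthase subunits, and Ndufa4 and Ndufa4l2 were kept apart as a pair of paralogues. In the annotation of the mouse genome build GRCm38, 71 were protein-coding genes. Ndufb1-ps, on chromosome 12, is annotated there as a bidirectional promoter lncRNA. It is counted here as a member, and among the 30 supernumerary subunits, by its symbol alone.

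The libraries were droplet single-cell RNA-seq of cells sorted from digested colon tumours, the sort keeping cells that excluded the dead-cell dye 7-AAD, lacked EpCAM and carried CD45. There were 6 libraries, 1 from SOX17KO tumours and 1 from Control tumours in each of 3 collections. The collections were an untimed pair, a pair labelled 1 week and a pair labelled 2 weeks. Each library pooled the tumours of 5 mice of its condition, and the labels name no strain, age, allele or tumour model for either genotype, so anything that SOX17KO and Control tumours share is not stated. The series asks what the transcription factor SOX17 of the tumour does to the immune cells around it. In the untimed pair no time is labelled, and in all comparisons of collections the time and the day of collection cannot be told apart.

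Complexes I and III pass electrons from NADH and ubiquinol down the inner mitochondrial membrane and pump protons, and the ATP synthase, or complex V, lets the protons back through its rotating c-ring to make ATP. Core subunits carry out catalysis, supernumerary subunits surround and stabilise the core, and assembly factors help to build the complex without staying in it. The proteins work beside subunits made in the mitochondrion itself, so both genomes have to be expressed. In immune cells, dividing lymphocytes and many tissue phagocytes are known for high respiratory capacity, and neutrophils are known for few mitochondria and for living largely on glycolysis.

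Upstream sequences of 3 members are shown because their log2 fold changes from 1 week to 2 weeks differed in macrophages and NK cells. That difference was not tested, and in neutrophils Atp5g1 and Atp5g3 fell by like amounts. A link between the sequences and the changes was not tested either. Atp5g1 and Atp5g3 encode the same mature c-ring subunit, and Uqcrh encodes the hinge subunit of complex III. The sequences are from RefSeq on GRCm38.p6, minus strand, written 5′ to 3′ and ended before the first base of any annotated exon, which for Atp5g1 is 40 bases short of the RefSeq start. The capitals mark matches to CCAAT and CCGGAAG. Atp5g1 is at chr11:96075671-96075881, Atp5g3 at chr2:73911327-73911576 and Uqcrh at chr4:116075072-116075320.
Atp5g1: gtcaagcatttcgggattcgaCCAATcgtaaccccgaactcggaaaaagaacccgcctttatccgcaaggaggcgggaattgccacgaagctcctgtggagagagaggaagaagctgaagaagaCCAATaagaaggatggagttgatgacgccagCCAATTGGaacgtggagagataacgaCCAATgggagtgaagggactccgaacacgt
Atp5g3: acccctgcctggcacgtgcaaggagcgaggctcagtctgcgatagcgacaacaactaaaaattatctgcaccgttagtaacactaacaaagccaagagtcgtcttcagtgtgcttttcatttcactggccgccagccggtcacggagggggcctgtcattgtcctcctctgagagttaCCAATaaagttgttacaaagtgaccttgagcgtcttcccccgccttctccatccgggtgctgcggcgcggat
Uqcrh: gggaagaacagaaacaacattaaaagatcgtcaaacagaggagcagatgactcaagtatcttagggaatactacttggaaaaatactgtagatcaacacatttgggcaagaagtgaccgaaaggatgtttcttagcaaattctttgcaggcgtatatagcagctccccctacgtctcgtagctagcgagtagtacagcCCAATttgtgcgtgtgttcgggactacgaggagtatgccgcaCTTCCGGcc

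Atp5g1 held 5 matches to CCAAT or its complement, 2 of them overlapping as CCAATTGG. Atp5g3 held 1 match, and Uqcrh held 1 match to CCAAT and 1 to CCGGAAG, the core bound by ETS factors such as GABP, printed on this strand as CTTCCGG. Promoter windows of 250 bases were found in the RefSeq table for 59 of the 72 members, with 64 windows in all, and were searched on both strands. CCAAT was found in 40.62% of these windows, against 33.85% of all 32851 windows, and CCGGAAG in 17.19%, against 6.907%. The site of nuclear respiratory factor 1, a palindrome rich in G and C, was found in 18.75% of the windows, against 3.738% of all, in 11 genes that include Atp5g2, Atp5k, Ndufa5, Ndufa8 and Ndufaf4. AAGATGGCG, the site of YY1, was in 1.562% against 0.6058%, and TATAAA in 10.94% against 12.37%. These matches are letters in a window and were not set against binding data.

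Over the 6 libraries 32167 cells were kept of 34607 barcodes, 2933 to 6860 per library, with a median of 3009 to 5880 unique molecular identifiers (UMIs) per cell. A median of 1.934% to 2.908% of UMIs was mitochondrially encoded. The members gave 2321112 of the 186678569 UMIs of the kept cells. Classes were gated per cell on marker UMIs: 24976 cells (77.6%) fell in 1 class, 2562 in more than 1 and 4629 in none. Levels are given as CPM, the UMIs of a gene per 1000000 UMIs of its class and library, for classes with at least 20 cells. Libraries shared 4 to 13 cell barcodes per pair over 15 pairs. Sox17 had 3 to 20 UMIs per library, so it cannot check the genotype in cells sorted to exclude the epithelium. Ptprc, which encodes CD45, was at 389 to 4032 CPM in the T, NK, B, neutrophil, monocyte, macrophage and dendritic cell classes. It was at 4.78 to 132 CPM in the cells that passed the fibroblast gate on collagen and decorin genes, so those cells go against the CD45 label. Epcam was at 2.26 to 20.4 CPM over all cells.

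The libraries of the 3 collections differed in make-up. T cells numbered 189 in SOX17KO and 131 in Control tumours at 1 week and 769 to 4208 in the other libraries, and macrophages 46 and 19 in the untimed pair and 400 to 2145 elsewhere. Where classes are compared with each other the libraries serve as blocks. The p-values then measure how far the difference between classes varies from 1 pooled library to another, a spread that may be technical.

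Type 1 and type 2 dendritic cells, macrophages and monocytes had the highest mean summed levels of the 72 genes, and neutrophils the lowest. Type 1 dendritic cells had the highest mean, 14855 ± 2749 CPM (SD, n = 6 libraries), and the highest level in 5 of the 6 libraries. The exception was the Control library at 2 weeks, where macrophages, type 2 dendritic cells and monocytes were higher. Macrophages averaged 14333 ± 3377 CPM (n = 5), type 2 dendritic cells 14323 ± 3399 CPM (n = 6) and monocytes 13193 ± 2639 CPM (n = 6). The macrophage mean lacks the untimed Control library, which had 19 such cells, so it is not on the same libraries as the others. In the untimed SOX17KO library macrophages were at 8798 CPM, below monocytes at 10012 CPM. The means of these 4 classes lay within 1 SD of each other over libraries, though the classes share libraries: type 1 dendritic cells were above the monocytes of the same library in 5 of the 6 libraries and below them in the 2-week Control library, at 13966 against 14036 CPM. The levels carry no test.

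Cycling T cells were above non-cycling T cells in each of the 5 libraries with both. Cycling T cells averaged 13088 ± 2338 CPM (n = 5) and non-cycling T cells 10271 ± 2538 CPM (n = 6). CD8 T cells had 11203 ± 2394 CPM (n = 5), regulatory T cells 10906 ± 2001 CPM (n = 6), CD4 T cells 10576 ± 3101 CPM (n = 5), NK cells 10566 ± 3106 CPM (n = 6) and gamma-delta T cells 9544 ± 3237 CPM (n = 5). Mature dendritic cells, at 10528 ± 2313 CPM (n = 6), and fibroblasts, at 10134 ± 2624 CPM (n = 5), fell in the same range. B cells were lower at 6892 ± 1729 CPM (n = 5). Neutrophils were the lowest at 4819 ± 1405 CPM (n = 5), and lowest in each of the 5 libraries in which they reached 20 cells.

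**Figure D1:**
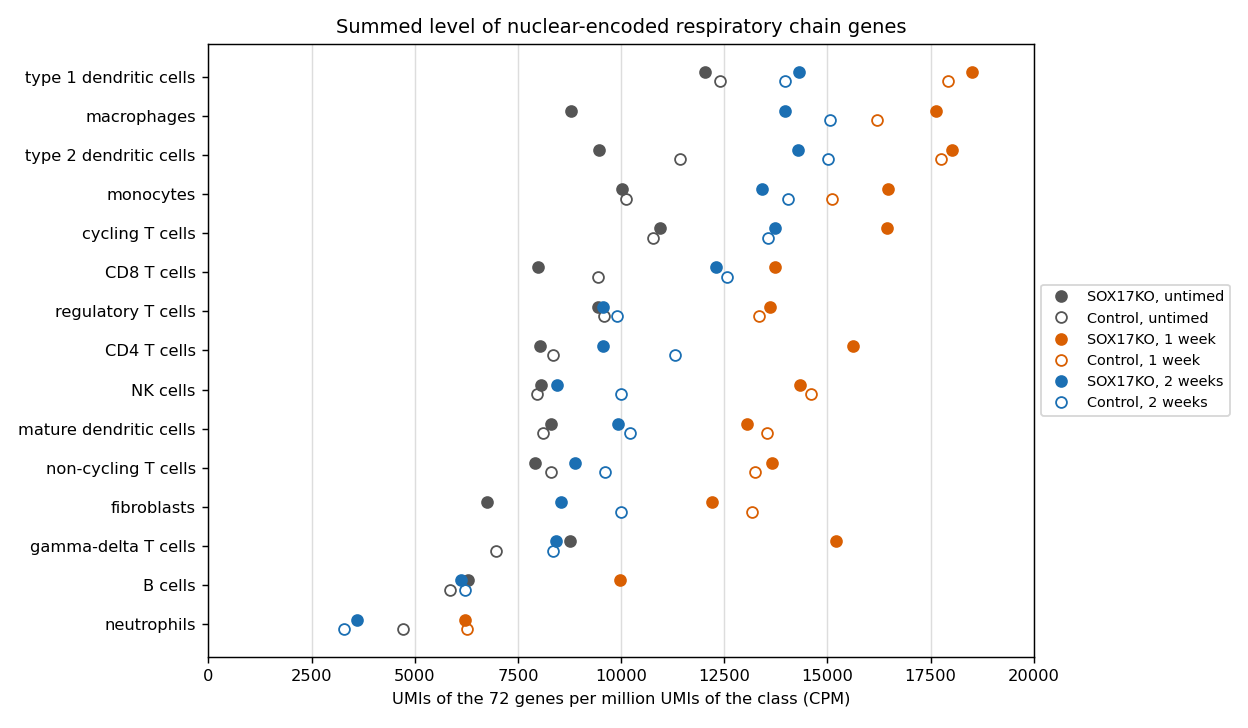
Summed level of the 72 genes in CPM (horizontal axis) by cell class (vertical axis), 1 point for each library with at least 20 cells of the class. Filled points are SOX17KO and open points Control, coloured by collection, and neutrophils at 3289 to 6266 CPM lie left of every other class in their libraries, with the 1-week points furthest right in most classes.

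Cycling T cells, those with UMIs of at least 2 of 6 cell cycle markers, had more RNA of most members than non-cycling T cells of the same libraries. In edgeR's quasi-likelihood test with Benjamini-Hochberg adjustment over all genes, 51 of 71 members tested were higher and 0 lower at adjusted p under 0.05. Of all 12512 genes tested 14.1% were higher and 14.7% lower. The median log2 fold change of the members was 0.46, against -0.06 over all genes. By role, 6 of 7 core and 23 of 30 supernumerary subunits of complex I rose, as did 7 of 8 subunits of complex III, all 5 subunits of the F1 head of ATP synthase and all 3 c-ring genes. Among the 8 assembly factors of complex I, 1 rose.

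Ndufab1, which encodes the mitochondrial acyl carrier protein that is also a complex I subunit, had 98.4, 250 and 129 CPM in cycling T cells of the SOX17KO untimed, 1-week and 2-week libraries. In Control cycling T cells it had 123 and 214 CPM in the untimed and 2-week libraries, the 1-week library having only 18 such cells. Non-cycling T cells of these 5 libraries had 60.1, 115 and 47.7 CPM in SOX17KO and 78.2 and 100 CPM in Control tumours. Each library was higher in its cycling cells, and the log2 fold change of 0.97 ± 0.14 (SE, adjusted p = 0.000224, edgeR) was the largest among the called members. Next in size came Ndufb8 (log2 fold change 0.84) and Ndufb6 (0.81), supernumerary subunits of the membrane arm of complex I, and Atp5o (0.83), the stalk protein that confers oligomycin sensitivity.

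The c-ring gene Atp5g3 had 235, 368 and 367 CPM in SOX17KO cycling T cells, in the order of the collections, and 284 and 409 CPM in Control ones. In non-cycling T cells it had 130, 254 and 198 CPM in SOX17KO and 169 and 220 CPM in Control tumours, so that the libraries did not overlap within a collection. Its log2 fold change was 0.77 ± 0.11 (adjusted p = 0.000183, edgeR), and those of Atp5g1 and Atp5g2 were 0.70 and 0.51, both called. The catalytic subunit gene Atp5b rose by 0.72 on the log2 scale, and Ndufa4, a gene first ascribed to complex I whose protein is a subunit of complex IV, by 0.67. Ndufa4l2, its hypoxia-induced paralogue, had no more than 0.0681 CPM in either T cell class and was not tested.

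In complex III the log2 fold changes were 0.71 for Uqcr10, 0.67 for Uqcrq, 0.64 for Uqcr11, 0.51 for Uqcrc1 and Uqcrfs1, 0.46 for Uqcrb and 0.39 for Uqcrc2, all called, and -0.18 for Uqcrh. Uqcrh did not pass the test (adjusted p = 0.184, edgeR): it had 496, 557 and 555 CPM in SOX17KO cycling T cells and 532 and 604 CPM in Control ones, against 508, 661 and 623 CPM and 542 and 737 CPM in non-cycling T cells. Ndufa6, at -0.26, Ndufs4, at -0.13, and Ndufs1, the largest core subunit of complex I, at 0.08, were not called either. Among the other lists, 9 of 11 nuclear complex IV genes and 48 of 78 mitochondrial ribosome genes were higher in cycling T cells, and 0 of 13 mitochondrially encoded genes were higher and 3 lower. Cycling T cells had a median of 6143 to 14050 UMIs per cell, against 3033 to 5438 in non-cycling T cells of the same 5 libraries. With every cell thinned to 1000 UMIs, 37 members were called. Without the library as a term in the fit, 3 were.

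**Figure D2:**
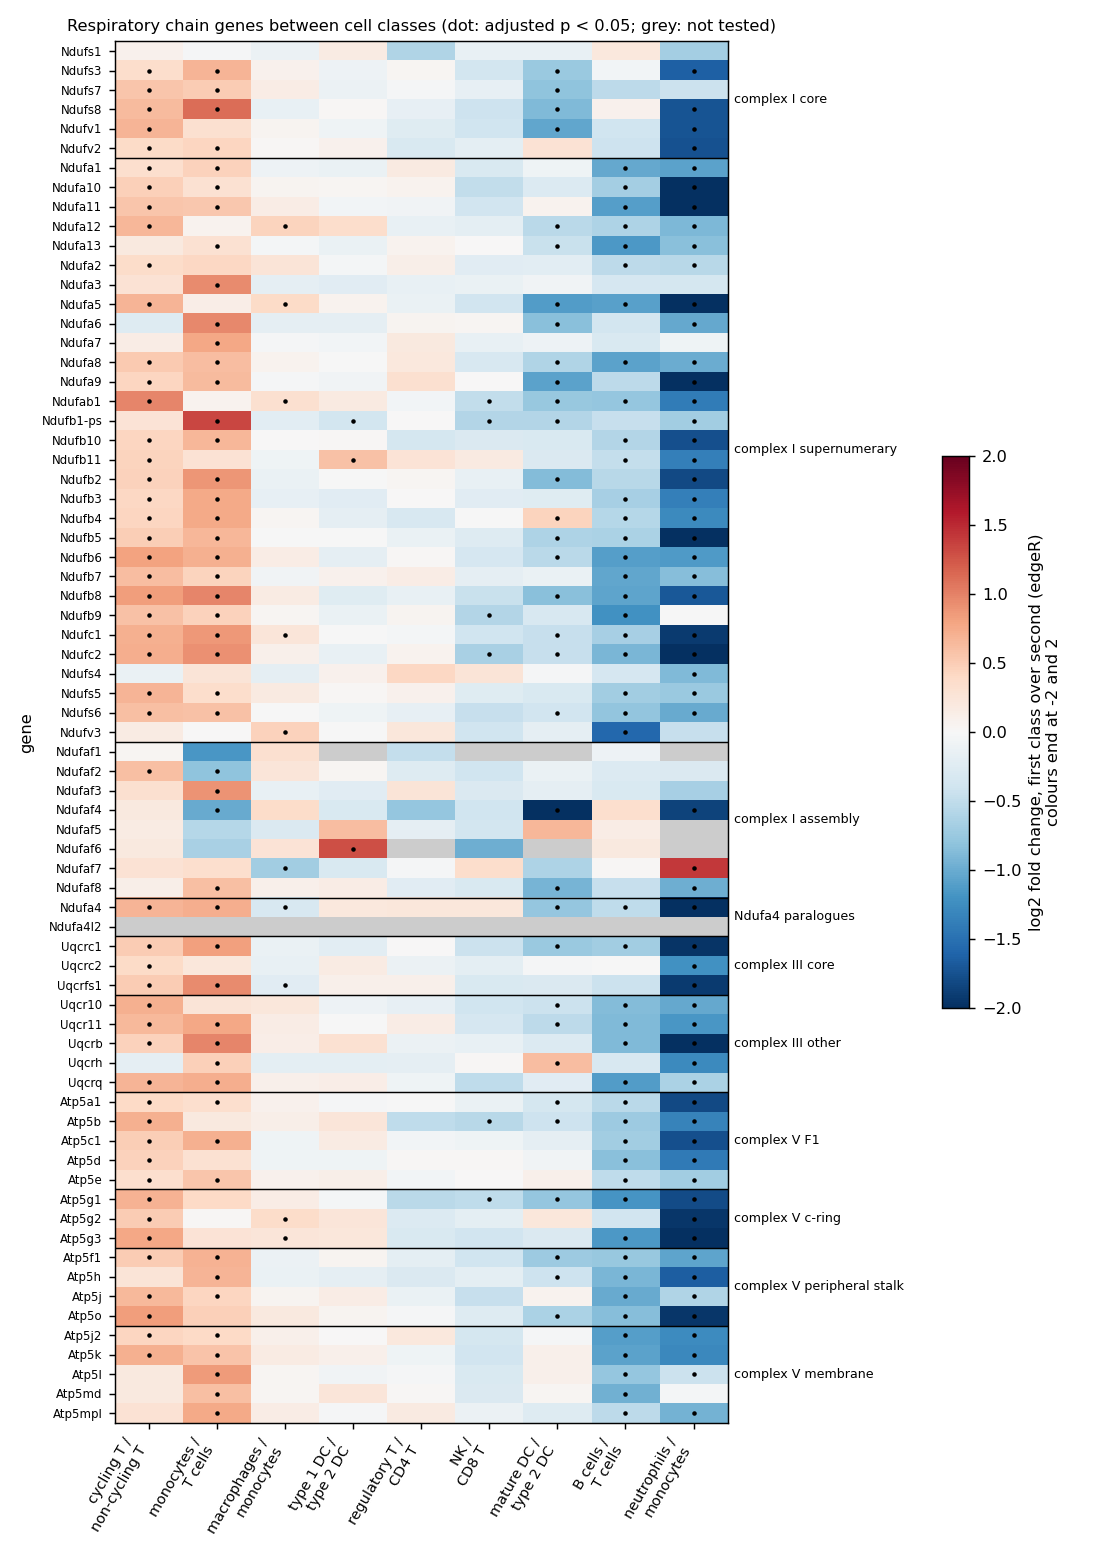
Fitted log2 fold change of 71 of the 72 genes (rows, grouped by role) in 9 comparisons of cell classes (columns, first class over second), with a dot where adjusted p was under 0.05 and grey where the gene was not tested. Cycling over non-cycling T cells has 50 dots, all on higher values, and neutrophils over monocytes has 58, with Ndufaf7 as the 1 higher gene.

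Monocytes had more of most members than T cells. Of 71 members tested, 48 were higher and 2 lower in monocytes (edgeR), where 28.2% of all genes were higher and 32.1% lower. The median log2 fold change was 0.54, against -0.10 over all genes. In this comparison edgeR's scaling placed the members 0.33 higher on the log2 scale than plain CPM did, and 3 of the called members had the other sign in CPM, so the split depends on the scaling. On plain CPM 49 of the 71 members had a positive and 22 a negative log2 ratio.

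Ndufb1-ps had 244, 521 and 677 CPM in SOX17KO monocytes of the untimed, 1-week and 2-week libraries and 186, 405 and 348 CPM in Control monocytes. In T cells it had 123, 304 and 303 CPM in SOX17KO and 96.7, 209 and 152 CPM in Control tumours, with monocytes higher in all 6 libraries (log2 fold change 1.34 ± 0.13, adjusted p = 6.08e-05, edgeR). Of the core subunits of complex I, Ndufs8, which holds iron-sulfur clusters, had a log2 fold change of 1.12 and was higher in all 6 libraries in CPM too. In complex III, Uqcrb (0.98), Uqcrfs1, the Rieske iron-sulfur protein (0.94), Uqcrc1 (0.83), Uqcr11 (0.77), Uqcrq (0.72) and Uqcrh (0.47) were called higher, and Uqcr10 (0.25) and Uqcrc2 (0.22) were not.

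The 8 assembly factors of complex I split, with 2 higher, Ndufaf3 (0.90, in 6 of 6 libraries) and Ndufaf8 (0.61, in 5 of 6), and 2 lower. Ndufaf4 had 9.76, 9.76 and 5.14 CPM in SOX17KO monocytes and 6.04, 11.2 and 16.5 CPM in Control monocytes. T cells had 22.6, 34.6 and 23.0 CPM of it in SOX17KO and 17.6, 25.8 and 26.1 CPM in Control tumours, so the classes did not overlap (log2 fold change -1.01 ± 0.22, adjusted p = 0.00329, edgeR). Ndufaf2 was the other lower one, at -0.80. The c-ring genes Atp5g1, Atp5g2 and Atp5g3 were at 0.39, 0.02 and 0.27 and were not called, while Ndufa4 was called at 0.73 though higher in CPM in 4 of 6 libraries. T cell markers summed to 1.19 to 322 CPM in monocytes, the highest in the SOX17KO untimed library with its 30 monocytes, and to 2010 to 3752 CPM in T cells. Without that library 60 members were called, the highest count on leaving out a library.

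Neutrophils had less of nearly every member than monocytes. Of 68 members tested, 58 were lower and 1 higher in neutrophils (edgeR), where 33.7% of all genes were lower and 28.4% higher. The median log2 fold change was -1.28, against -0.19 over all genes, and edgeR's scaling put the members 0.47 higher than plain CPM, on which 67 of the 68 were negative. The lower members were all 5 F1, all 3 c-ring, all 4 stalk and all 8 complex III genes, 4 of 5 membrane genes, 5 of 7 core and 26 of 30 supernumerary genes of complex I, 2 of its assembly factors, Ndufaf4 and Ndufaf8, and Ndufa4.

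Ndufa9, a matrix arm subunit of complex I, had 6.90 and 0 CPM in SOX17KO neutrophils at 1 and 2 weeks and 9.14, 5.93 and 0 CPM in Control neutrophils of the 3 collections, the untimed SOX17KO library having only 8 neutrophils. Monocytes had 61.4 and 37.1 CPM in SOX17KO and 55.6, 52.3 and 47.5 CPM in Control tumours, each above every neutrophil value (log2 fold change -2.87 ± 0.37, adjusted p = 2.67e-05, edgeR). With 0 CPM in neutrophils of both 2-week libraries, the size of this fold change rests on few UMIs. Ndufc2 (-2.77), Ndufa5 (-2.60), Ndufa10 and Ndufa11 (both -2.30) followed Ndufa9 among the supernumerary subunits. Atp5g3, Atp5g2 and Atp5g1 were at -2.07, -1.95 and -1.78.

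The complex III genes were lower by various amounts, with log2 fold changes of -2.03 for Uqcrb, -1.96 for Uqcrc1, -1.92 for Uqcrfs1, -1.28 for Uqcrh, -1.21 for Uqcrc2, -1.17 for Uqcr11, -1.03 for Uqcr10 and -0.64 for Uqcrq. Ndufb9, at -0.00, Atp5md, at -0.04, and Ndufa7, at -0.09, were not called. Ndufaf7, a methyltransferase that acts in the assembly of complex I, was the 1 higher member: it had 50.6 and 26.2 CPM in SOX17KO neutrophils at 1 and 2 weeks and 34.0, 19.8 and 48.9 CPM in Control neutrophils of the 3 collections. Monocytes had 11.9 and 20.6 CPM in SOX17KO and 27.8, 14.0 and 21.9 CPM in Control tumours, each below the neutrophils of its library (log2 fold change 1.41 ± 0.31, adjusted p = 0.00159, edgeR).

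Beside the members, 12 of 13 mitochondrially encoded genes were lower in neutrophils (median -1.39), and so were 79 of 84 cytosolic ribosome genes. Of 14 glycolysis genes tested, 4 were higher and 0 lower (median 0.27), the share of higher ones being near that of all genes in this comparison. Monocyte markers summed to 436 to 2151 CPM in neutrophils and to 7130 to 9158 CPM in monocytes of the same 5 libraries. Their part in the comparison was not tested.

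B cells were also low. Of 71 members tested against T cells, 46 were lower and 0 higher in B cells (edgeR), where 24.6% of all genes were lower and 15.5% higher, with a median log2 fold change of -0.67 against -0.11 over all genes. All 5 F1 genes, all 4 stalk genes, all 5 membrane genes and 23 of 30 supernumerary subunits of complex I were lower, and 0 of 8 assembly factors passed the test. Ndufv3, a supernumerary subunit beside the NADH site, had 40.0, 67.9 and 58.5 CPM in SOX17KO B cells and 26.0 and 82.8 CPM in untimed and 2-week Control B cells. T cells of these libraries had 122, 223 and 164 CPM in SOX17KO and 91.4 and 117 CPM in Control tumours (log2 fold change -1.57 ± 0.20, adjusted p = 1.7e-05, edgeR). Each B cell value was below that of the T cells of its library.

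Atp5g1 (-1.18) and Atp5g3 (-1.15) were lower in B cells, and Atp5g2 (-0.38, adjusted p = 0.11, edgeR) did not pass the test. In complex III the called genes were Uqcrq (-1.11), Uqcrb and Uqcr11 (both -0.88), Uqcr10 (-0.87) and Uqcrc1 (-0.70), and those not called were Uqcrfs1 (-0.43), Uqcrh (-0.32) and Uqcrc2 (-0.01). Mitochondrially encoded genes went the other way, with 4 of 13 higher in B cells and 0 lower, and 12 of 14 glycolysis genes were lower. T cell markers summed to 0 to 39.0 CPM in B cells. Without the SOX17KO 2-week library 29 members were called, and with cells thinned to 1000 UMIs 28 were.

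Mature dendritic cells, which carry the migration receptor gene Ccr7, were lower than type 2 dendritic cells for part of the members at adjusted p under 0.05. Of 69 tested, 31 were lower and 2 higher in mature dendritic cells (edgeR), where 24.8% of all genes were lower and 23.4% higher. The median log2 fold change was -0.31, against -0.03 over all genes. Scaling by edgeR put the members 0.19 higher than plain CPM, on which 64 of the 69 were negative, so the count of calls depends on the scaling. Among core subunits of complex I, 4 of 7 were lower, with Ndufv1, which binds NADH, at -1.03. Ndufaf4 had the largest difference: 6.77, 4.33 and 6.82 CPM in SOX17KO and 7.21, 2.95 and 2.19 CPM in Control mature dendritic cells, against 21.2, 30.1 and 12.8 CPM and 19.8, 26.9 and 15.6 CPM in type 2 dendritic cells. The classes did not overlap (log2 fold change -2.02 ± 0.39, adjusted p = 0.000629, edgeR). The libraries held 24 to 78 mature and 21 to 186 type 2 dendritic cells, so the lowest of these levels rest on few UMIs.

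Uqcrh went the other way in these cells. It had 670, 591 and 628 CPM in SOX17KO and 548, 497 and 663 CPM in Control mature dendritic cells, against 388, 519 and 449 CPM and 362, 448 and 518 CPM in type 2 dendritic cells, and was higher in all 6 libraries (log2 fold change 0.62 ± 0.12, adjusted p = 0.000814, edgeR). Of the rest of complex III, Uqcrc1 (-0.75), Uqcr11 (-0.52) and Uqcr10 (-0.43) were called lower, and Uqcrfs1 (-0.29), Uqcrb (-0.28), Uqcrq (-0.22) and Uqcrc2 (-0.02) were not called. Of the c-ring genes Atp5g1 was lower, at -0.78, and Atp5g3 (-0.28) and Atp5g2 (0.22) were not called. With cells thinned to 1000 UMIs 12 members were called, and without the library as a term 14.

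The remaining class comparisons gave few calls. Between macrophages and monocytes 7 of 71 members were higher and 3 lower in macrophages, below the 12.4% and 12.6% of all genes. Ndufa12 (0.44), Ndufa5 (0.38), Atp5g2 (0.36) and Ndufab1 (0.33) were among the higher ones and Ndufaf7 (-0.69), Ndufa4 (-0.32, in 4 of 5 libraries) and Uqcrfs1 (-0.23) the lower ones. Without either 1-week library 4 members were called, and without the library as a term 0. Between type 1 and type 2 dendritic cells 2 of 70 members were higher and 1 lower, against 12.7% and 14.8% of all genes.

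The assembly factor gene Ndufaf6 had 14.2, 24.5 and 15.7 CPM in SOX17KO and 29.0, 16.0 and 33.6 CPM in Control type 1 dendritic cells, against 7.05, 10.6 and 7.34 CPM and 8.16, 8.55 and 10.4 CPM in type 2 dendritic cells. The classes did not overlap (log2 fold change 1.29 ± 0.25, adjusted p = 0.00145, edgeR). With 45 to 85 type 1 and 21 to 186 type 2 dendritic cells per library, the lowest of these levels rest on few UMIs. Ndufb11, a membrane arm subunit of complex I, was at 0.59 and Ndufb1-ps at -0.36. The count was 6 without the untimed SOX17KO library and 1 in thinned cells.

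NK cells were lower than CD8 T cells for 6 of 70 members and higher for 0, against 10.6% and 10.2% of all genes (edgeR). The 6 were Ndufc2 (-0.64), Ndufb9 and Ndufb1-ps (both -0.59), Atp5b (-0.56), Atp5g1 (-0.51) and Ndufab1 (-0.50). Against non-cycling CD8 T cells 1 member was called and Ndufab1 was at 0.09. The count was 22 without the 1-week SOX17KO library, which had 30 CD8 T cells, 1 without the untimed or the 2-week Control library and 0 without the 2-week SOX17KO library. Between regulatory and CD4 T cells 0 of 70 members were called by edgeR and 0 by DESeq2, where 7.78% of all genes were called. At an unadjusted p under 0.05 there were 5 members, 1 higher and 4 lower, where 18.4% of all genes were, and Atp5g1 was at -0.54 (adjusted p = 0.0905, edgeR). Without the untimed Control library 2 were called.

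**Figure D3:**
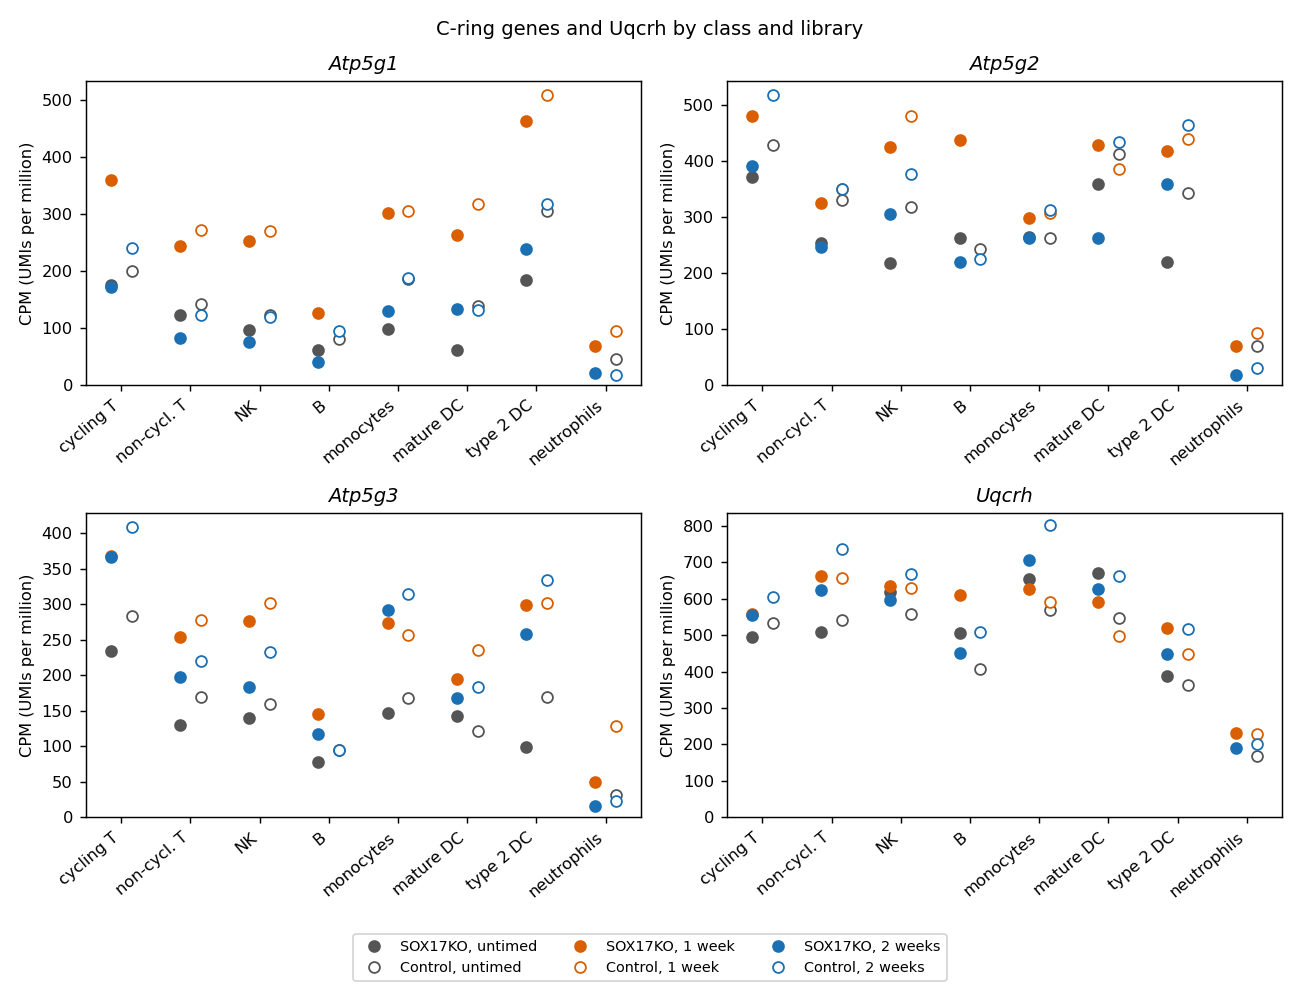
Level in CPM (vertical axes, from 0) of the c-ring genes Atp5g1, Atp5g2 and Atp5g3 and of Uqcrh in 8 cell classes, 1 point for each library with at least 20 cells, filled for SOX17KO and open for Control and coloured by collection. The highest Atp5g1 value of each class is from a 1-week library, as in NK cells with 253 and 271 CPM, while Uqcrh stays between 559 and 667 CPM in the 6 NK libraries.

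At 2 weeks, members were lower than at 1 week in most classes, in a fit with collection and genotype as terms. Over all cells summed, 38 of 72 members were lower and 0 higher, with a median log2 fold change of -0.76, where 6.17% of all genes were lower and 8.05% higher. In NK cells 39 of 68 were lower (median -0.92, 7.64% of all genes). In T cells the count was 8 of 71 (median -0.49, 5.27%), in the T cells that met no subset gate 29 of 71 (median -0.82, 4.97%) and in regulatory T cells 13 of 64 (median -0.70, 8.14%). Macrophages had 16 of 72 lower (median -0.35, 5.78%), fibroblasts 19 of 72 (median -0.58, 5.64%) and neutrophils 25 of 57 (median -0.97, 11.2%), each fitted on the 4 libraries of 1 and 2 weeks alone. DESeq2 called 0 members in neutrophils, 5 in macrophages and 5 in fibroblasts.

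In 4 classes no member passed the test. Monocytes had 0 of 70 lower (median -0.40, 0.315% of all genes), type 1 dendritic cells 0 of 70 (median -0.47, 0.0261%), type 2 dendritic cells 0 of 68 (median -0.44, 0.126%) and mature dendritic cells 0 of 66 (median -0.57, 0.0165%). At an unadjusted p under 0.05 there were 21, 24, 21 and 24 members in these classes, all lower, where 16.3%, 13.9%, 13.1% and 13.4% of all genes were called in either direction, and DESeq2 also called 0. The difference between classes was not tested.

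Atp5g1 had the largest called fall in NK cells, T cells, macrophages, regulatory T cells and all cells summed. In NK cells it had 76.1 CPM in SOX17KO and 120 CPM in Control tumours at 2 weeks, against 253 and 271 CPM at 1 week (log2 fold change -1.65 ± 0.23, adjusted p = 0.00112, edgeR). In macrophages it had 134 and 209 CPM at 2 weeks, against 373 and 366 CPM at 1 week (-1.18 ± 0.18, adjusted p = 0.000978, edgeR). The times did not overlap in either class. Its log2 fold change was -1.60 in the T cells without a subset, -1.52 in regulatory T cells, -1.26 in fibroblasts, -1.16 in T cells and -1.96 in neutrophils, all called. It was -1.09 in monocytes (adjusted p = 0.106, edgeR), -1.25 in mature and -0.95 in type 1 and type 2 dendritic cells, where it did not pass the test.

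In macrophages and NK cells the other c-ring genes had smaller log2 fold changes than Atp5g1, with no test of the difference. Atp5g3 in macrophages had 334 and 369 CPM at 2 weeks in SOX17KO and Control tumours, against 345 and 339 CPM at 1 week, and Atp5g2 had 379 and 434 CPM, against 390 and 375 CPM. Their log2 fold changes there were -0.00 and 0.05. In NK cells Atp5g3 was at -0.69 (adjusted p = 0.0494, edgeR) and Atp5g2 at -0.61 (adjusted p = 0.0726, edgeR). In neutrophils all 3 were called, with log2 fold changes of -2.07 for Atp5g3, -1.96 for Atp5g1 and -1.73 for Atp5g2.

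Among complex I genes, Ndufa12, at the root of the matrix arm, was called lower in macrophages (-0.86), T cells (-1.13) and NK cells (-1.36). Ndufs8 (-1.44) and Ndufv1 (-1.35), both core subunits, were lower in NK cells. Ndufa4 was lower in NK cells (-1.26), macrophages (-0.86) and fibroblasts (-1.52), in which it had 128 and 160 CPM at 2 weeks, against 369 and 396 CPM at 1 week. In complex III the NK cell values were -1.48 for Uqcrq, -1.25 for Uqcrc1, -1.21 for Uqcrb, -1.16 for Uqcr10 and -0.95 for Uqcr11, all called, and -0.43 for Uqcrc2, -0.42 for Uqcrfs1 and -0.20 for Uqcrh. Uqcrh was called in none of the 12: it had 598 and 667 CPM in NK cells at 2 weeks, against 635 and 629 CPM at 1 week, and 666 and 802 CPM in macrophages, against 543 and 517 CPM (log2 fold change 0.43, adjusted p = 0.12, edgeR).

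**Figure D4:**
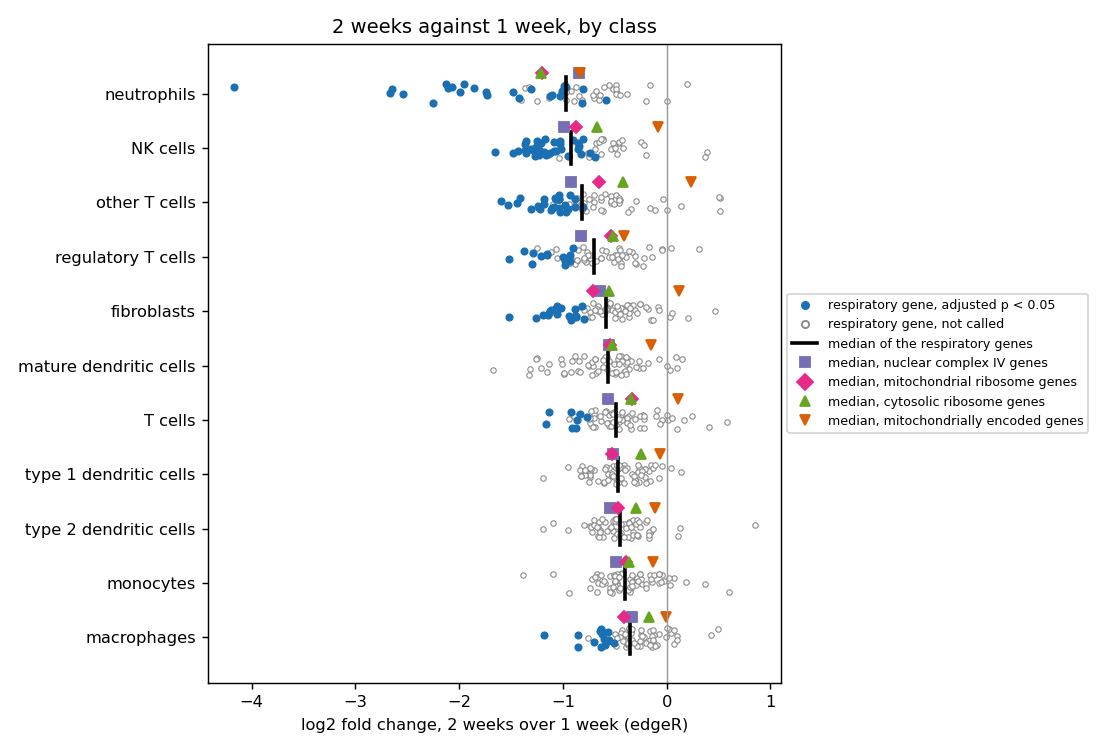
Fitted log2 fold change of each member, 2 weeks over 1 week (horizontal axis), by cell class (vertical axis), filled where adjusted p was under 0.05, with a bar at the members' median and symbols at the medians of 4 other gene lists. In NK cells the members' median of -0.92 lies near that of the nuclear complex IV genes, -0.99, while the mitochondrially encoded genes are at -0.08.

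Nuclear complex IV genes moved with the members: 10 of 11 were lower in NK cells (median -0.99) and 8 of 11 in all cells summed (median -0.92). Mitochondrial ribosome genes were lower in 16 of 72 cases in NK cells (median -0.87) and cytosolic ribosome genes in 45 of 83 (median -0.67). Mitochondrially encoded genes had medians of -0.08 in NK cells, 0.11 in T cells, -0.01 in macrophages and 0.12 in fibroblasts, with 0 of 13 called in each. The exceptions were neutrophils, with 9 of 11 lower (median -0.84), and regulatory T cells, with 1 of 13 lower (median -0.41). The scaling of edgeR put the members 0.30 lower than plain CPM in all cells summed, 0.20 lower in NK cells and regulatory T cells and 0.04 lower in macrophages, and no called member had the other sign in CPM.

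Markers of other cells moved with time in the same classes. In T cells the 8 macrophage markers summed to 60.9 CPM in SOX17KO and 26.5 CPM in Control tumours at 2 weeks, against 805 and 647 CPM at 1 week, and the monocyte markers to 1170 and 905 CPM, against 1952 and 2325 CPM. In NK cells the macrophage markers were at 7.62 and 8.36 CPM, against 243 and 125 CPM, and in regulatory T cells at 122 and 56.0 CPM, against 1200 and 841 CPM. In NK cells up to 7 of the 8 markers were at 0 in a library, in T cells none was. In macrophages themselves the markers summed to 7920 and 7619 CPM, against 6919 and 8068 CPM, and T cell markers to 14.4 and 19.2 CPM, against 1.79 and 4.26 CPM. Over all cells, macrophage markers were at 1745 and 908 CPM, against 3685 and 4026 CPM. The part of RNA from other cells in these differences was not tested.

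Depth and mitochondrial share moved with time as well. The median UMIs per kept cell were 4553 in SOX17KO and 4007 in Control tumours at 2 weeks, against 5880 and 5615 at 1 week, and the median mitochondrial share was 2.693% and 2.908%, against 2.467% and 2.266%. Barcodes over the 10% mitochondrial limit, which were removed, numbered 150 of 3163 and 202 of 4985 at 2 weeks, against 186 of 7495 and 87 of 5579 at 1 week. The part of RNA quality in the fall was not tested.

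The counts of calls depended on single libraries. For all cells summed and for T cells, 0 members were called without any 1 of the 4 libraries of 1 and 2 weeks. In NK cells the count was 24 or 25 without a Control library of 1 or 2 weeks and 3 without a SOX17KO one, and in regulatory T cells 10 without the 1-week Control library and 2 or 3 without any of the other 3. In the T cells without a subset it was 9 without the 1-week SOX17KO, 3 without the 2-week Control and 0 without the 1-week Control or 2-week SOX17KO library. Atp5g1 in NK cells stayed called without any 1 of them, at -1.45 to -1.87. With cells thinned to 1000 UMIs, 22 members were called in NK cells, 8 in macrophages, 3 in the T cells without a subset, 2 in neutrophils, 1 each in T and regulatory T cells and 0 in fibroblasts.

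In the untimed pair the level was lower than in the timed pairs. All cells summed gave 8177 CPM in SOX17KO and 9095 CPM in Control tumours for the 72 genes, against 16141 and 15286 CPM at 1 week and 11386 and 12096 CPM at 2 weeks. Against the mean of the timed pairs, 48 of 72 members were lower in all cells summed (14.5% of all genes), 16 of 71 in T cells (3.31%), 9 of 70 in monocytes (1.76%), 4 of 71 in the T cells without a subset (1.56%), 3 of 68 in NK cells (0.71%) and 2 of 64 in regulatory T cells (3.47%). In type 1, type 2 and mature dendritic cells 0 were called (0.665%, 0.553% and 0.48%). At an unadjusted p under 0.05 there were 20, 31 and 23 members in them, all lower, where 10.4%, 12.2% and 12.9% of all genes were called in either direction, and DESeq2 called 0, 4 and 0. None was higher in all cells summed, where 14.4% of all genes were. The smaller counts changed with single libraries: NK cells gave 12 without the untimed SOX17KO and 0 without the untimed Control library, the T cells without a subset 0 without the 1-week Control or 2-week SOX17KO library and 2 without the 2-week Control library, and monocytes 4 and 5 without the 2-week SOX17KO and Control libraries. Regulatory T cells gave 0 without either untimed library and 5 and 4 without the 1-week SOX17KO and the 2-week Control library. Without the untimed SOX17KO library type 1, type 2 and mature dendritic cells gave 2, 12 and 8, and without the untimed Control library 1, 10 and 2.

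In T cells Atp5mpl had the largest called difference. Atp5mpl, a small membrane protein of the ATP synthase, had 110 and 76.7 CPM in untimed SOX17KO and Control T cells, against 304 and 263 CPM at 1 week and 312 and 172 CPM at 2 weeks (log2 fold change -1.43 ± 0.19, adjusted p = 0.0126, edgeR). The untimed libraries lay below all 4 others. In T cells Atp5k (-1.28), Ndufa4 (-1.17), Ndufc1 (-1.07), Ndufb1-ps (-1.05), Uqcr11 (-1.01) and Uqcr10 (-0.96) were called too, and in monocytes Atp5k (-1.64), Atp5mpl (-1.50), Ndufa1 (-1.48) and Uqcr10 (-1.44). Of complex III in all cells, Uqcr11 (-1.33), Uqcr10 (-1.19), Uqcrb (-1.10), Uqcrq (-1.08), Uqcrfs1 (-0.74) and Uqcrc1 (-0.68) were called, and Uqcrh (-0.32) and Uqcrc2 (-0.22) were not.

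Ndufa4l2 was the member with the largest difference in all cells summed: 0.58 CPM in untimed SOX17KO and 0.0514 CPM in untimed Control cells, against 6.88 and 9.14 CPM at 1 week and 6.73 and 2.58 CPM at 2 weeks (log2 fold change -4.65 ± 0.89, adjusted p = 0.027, edgeR). Its highest levels were in the fibroblast gate. There it had 34.2, 82.7 and 65.9 CPM in the SOX17KO untimed, 1-week and 2-week libraries and 125 and 81.3 CPM in the Control 1-week and 2-week libraries, the untimed Control library having 2 such cells. No other class with at least 20 cells exceeded 5.93 CPM. Cells of the fibroblast gate numbered 63 and 2 in the untimed SOX17KO and Control libraries, against 225 and 146 at 1 week and 74 and 47 at 2 weeks. In SOX17KO tumours the gate held 63 of 6051 kept cells in the untimed library, against 225 of 6860 and 74 of 2933 in the timed ones. Its Ndufa4l2 level was 34.2 CPM, against 82.7 and 65.9 CPM, so both were lower there. The untimed Control library had too few such cells for a level. The part of each in the difference over all cells was not tested. Over all cells the 5 monocyte markers had 646 and 1225 CPM in the untimed pair, against 2311 to 4969 CPM in the timed libraries. Their part was not tested. For all cells, 0 members were called without the 1-week Control or either 2-week library and 5 without the 1-week SOX17KO library, and in T cells 1 without either 1-week library, 3 without the 2-week Control library and 30 without the untimed SOX17KO library.

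SOX17KO and Control tumours did not differ in any member at adjusted p under 0.05. Of 72 members 0 were called in all cells by edgeR, where 0% of 16514 genes were, and the lowest adjusted p of a member was 0.7415. At an unadjusted p under 0.05 there were 12 higher and 2 lower members, where 5.12% of all genes were in either direction. The same count of 0 held in T, CD8 T, CD4 T, regulatory T, gamma-delta T, NK and B cells, in the T cells without a subset, and in neutrophils, monocytes, macrophages, fibroblasts and the 3 dendritic cell classes. The fits did not all rest on 3 pairs. CD8 T, CD4 T, gamma-delta T and B cells lacked the 1-week pair, in which a library had under 20 cells. Neutrophils, macrophages and fibroblasts lacked the untimed pair in the same way, so these fits had 4 libraries and less power. Of all genes, 0.0832% were called in gamma-delta T cells, 0.99% in neutrophils, 0.00922% in macrophages, 0.0597% in fibroblasts and 0% in the other 11 classes. DESeq2 called 0 members in each of them. Without the untimed pair 2 members were called in T cells, and without the 1-week pair 1 in regulatory T cells. The lowest adjusted p in any class was 0.1041, for Atp5md in gamma-delta T cells.

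At an unadjusted p under 0.05 the T cell classes held members on both sides. All T cells had 9 higher and 10 lower of 71 (8.25% of all genes in either direction), CD8 T cells 7 and 7 of 71 (8.72%), CD4 T cells 6 and 9 of 71 (9.24%), regulatory T cells 4 and 5 of 64 (6.08%) and the T cells without a subset 6 and 6 of 71 (7.24%). Gamma-delta T cells had 8 higher and 0 lower of 65 (6.2%). NK cells had 1 higher and 5 lower of 68 (4.37%), B cells 3 and 2 of 69 (3.81%), fibroblasts 2 and 7 of 72 (6.95%) and neutrophils 0 and 1 of 57 (8.91%). Monocytes had 3 higher and 0 lower of 70 (2%), macrophages 5 and 1 of 72 (4.13%), and type 1, type 2 and mature dendritic cells 4 and 3 of 70 (5.11%), 2 and 6 of 68 (4.31%) and 1 and 1 of 66 (5.43%).

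Pair by pair the summed level was 0.891 times the Control level in untimed SOX17KO T cells, 1.006 times at 1 week and 0.919 times at 2 weeks. In regulatory T cells the ratios were 0.984, 1.019 and 0.965, and in type 1 dendritic cells 0.969, 1.033 and 1.025. The ratio furthest from 1 among classes with at least 2 pairs was 1.259 in untimed gamma-delta T cells, which was 1.009 at 2 weeks. Fibroblasts had 0.926 at 1 week and 0.854 at 2 weeks. The ratios lay on both sides of 1 in T, NK and regulatory T cells and in the 3 dendritic cell classes, and below 1 throughout in CD8 and CD4 T cells and fibroblasts. Cycling cells made up 107 of 4208 untimed SOX17KO T cells, against 455 of 3812 Control ones. At 1 week they were 27 of 189, against 18 of 131, and at 2 weeks 154 of 769, against 549 of 2116. Among untimed CD8 T cells they were 68 of 2873, against 155 of 1184. In non-cycling T cells the summed ratios were 0.956, 1.031 and 0.924 in the order of the collections. The part of cycling cells in the ratios was not tested.

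**Figure D5:**
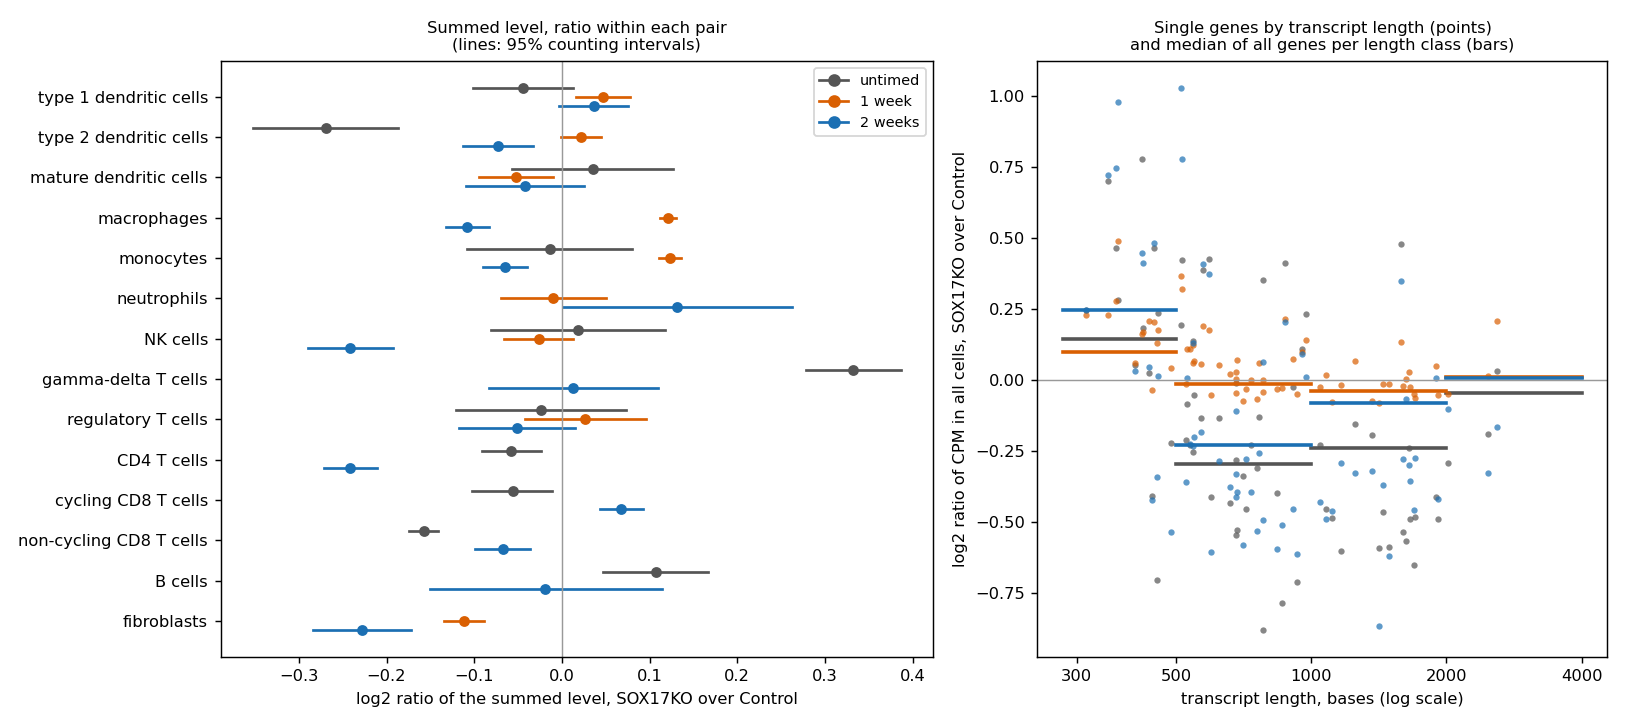
Left, log2 ratio of the summed level of the 72 genes, SOX17KO over Control, within each pair (horizontal axis) by class, with 95% counting intervals as lines. Right, log2 ratio of CPM of single members in all cells, SOX17KO over Control (vertical axis), against transcript length in bases on a log axis, 3 points a gene, for members with a mean of at least 20 CPM, with bars at the median of all genes of each length class, which reach 0.25 for genes under 500 bases at 2 weeks and -0.30 for genes of 500 to under 1000 bases in the untimed pair.

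Members kept 1 direction over the 3 pairs in both senses. Over all cells 19 of 72 members were higher in SOX17KO tumours in all 3 pairs (15.2% of all genes were) and 25 lower in all 3 (16.9% of all genes). Several of the higher ones are small subunits. Atp5k, subunit e of the ATP synthase, had 54.5, 172 and 182 CPM in SOX17KO and 44.8, 123 and 92.5 CPM in Control tumours in the untimed, 1-week and 2-week collections (log2 fold change 0.62 ± 0.16, adjusted p = 0.742, edgeR). Ndufb1-ps had 121, 423 and 406 CPM in SOX17KO and 106, 328 and 199 CPM in Control tumours. Ndufa3 (0.54), Atp5mpl (0.53), Atp5md (0.59) and Uqcr11 (0.42) were also higher in each pair, without passing the test.

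On the lower side, Ndufab1 had 64.0, 144 and 82.4 CPM in SOX17KO and 96.5, 152 and 150 CPM in Control tumours (log2 fold change -0.48). Atp5g1, Atp5g2 and Atp5g3 were at -0.32, -0.25 and -0.22, and each was lower in all 3 pairs: Atp5g1 had 129, 334 and 126 CPM in SOX17KO and 172, 347 and 192 CPM in Control tumours. Ndufa4 was at -0.27 and Ndufa4l2 at 1.00, both with 1 pair the other way. The complex III genes were at 0.42 for Uqcr11, 0.13 for Uqcr10, 0.09 for Uqcrq, -0.03 for Uqcrh, -0.08 for Uqcrb and Uqcrc2, -0.13 for Uqcrc1 and -0.16 for Uqcrfs1. None of these was called.

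The directions were also set out by transcript length, a view chosen after the values were seen. Of 13 members with a transcript under 500 bases, 10 were higher in SOX17KO tumours in all 3 pairs (76.92%), against 18.26% of the 860 genes of that length. Of 33 members of 500 to under 1000 bases, 8 were higher (24.24%) and 9 lower (27.27%) in all 3 pairs, against 11.41% and 23.71% of all genes of that length. Of 22 members of 1000 to under 2000 bases, 14 were lower in all 3 pairs (63.64%), against 24.42% of all genes of that length. Atp5e, Atp5k, Atp5md, Atp5mpl, Ndufa3, Ndufb1-ps and Uqcr11, of 352 to 515 bases, had a positive log2 fold change in all 16 comparisons of genotype. Atp5c1, Atp5g3, Atp5o, Ndufa12, Ndufab1, Ndufb5, Ndufs8 and Uqcrfs1, of 714 to 1416 bases, had a negative one in all 16. These comparisons share libraries and all cells summed holds the other classes, so they are not 16 separate observations. The share of all genes, or of genes of like length, that kept the same direction in all 16 is not given here. The lists therefore do not show that the members differ from other genes in this. Over all genes with a mean of at least 20 CPM the median difference on the log2 scale, in the order of the collections, was 0.15, 0.10 and 0.25 for those under 500 bases, -0.30, -0.01 and -0.23 for those of 500 to under 1000 bases and -0.24, -0.04 and -0.08 for those of 1000 to under 2000 bases. Whether length has a part in the members' directions was not tested.

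The fall between the weeks was of like size in the shorter length classes. Over all cells the members' medians were -0.85 under 500 bases, -0.80 from 500 to under 1000 bases, -0.74 from 1000 to under 2000 bases and -0.26 for the 4 genes of 2000 bases or more. The medians of all genes of these lengths were 0.05, -0.26, -0.20 and 0.07.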

How the data were processed

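The deposited matrices hold raw UMI counts per gene and cell barcode, made by the authors with Cell Ranger, version 7.0.1 per the file headers and 6.0.1 per the submitters' processing notes, on mm10; the annotation release and intron setting are not given in the sources used here. Cells with at least 200 genes and at most 10% mitochondrial UMIs were kept. Doublets were removed with a nearest-neighbour score against 2 simulated doublets per cell (2000 variable genes, 30 components), at 0.8% per 1000 cells. Cells were classed by marker genes, with thresholds set after the data were seen. UMIs were summed per library and class and tested with edgeR 4.0.16 (R 4.3.3, TMM, filterByExpr, quasi-likelihood, Benjamini-Hochberg over all genes), with collection and genotype, or library and class, as terms; DESeq2 1.42.0 was an alternative. The code was tested on simulated data with known changes.

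A collection holds 1 SOX17KO and 1 Control library and served as the pairing; nothing says the mice were shared. Named genes were called members with 1 direction in every pair or library, ordered by fold change. Exceptions carry their count of libraries or belong to the c-ring genes, the Ndufa4 paralogues or complex III. Where fewer than 8 were called, members with 1 direction in every pair were added. The c-ring genes, the Ndufa4 paralogues and complex III were given beside these by choice, in several comparisons only in part or not at all. Other uncalled members were named after their values were seen. Fits on 4 libraries, thinning and the length view were added after seeing the data. The members and lists were chosen with earlier results of these data known. Intervals cover counting error only. Python 3.11.15 was used for sums and figures. Of the 72 members 1 counts in the totals but is not reported by itself here and is not drawn.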

Additional observations from a re-analysis of the deposited data

Results flagged for a closer look

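The summed level of the 72 genes in SOX17KO tumours lay on different sides of the Control level in different collections for several classes, and in each case the difference between collections was not tested. In monocytes the ratio of SOX17KO to Control was 0.991 in the untimed pair, 1.089 at 1 week and 0.956 at 2 weeks. In macrophages it was 1.088 at 1 week and 0.928 at 2 weeks. In all cells summed it was 0.899 in the untimed pair, 1.056 at 1 week and 0.941 at 2 weeks. In non-cycling T cells it was 0.956, 1.031 and 0.924 in the same order. In cycling CD8 T cells it was 0.962 in the untimed pair and 1.048 at 2 weeks. Each ratio comes from 1 library of each genotype.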

How the results depend on the processing

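Counts of called members moved by more than 1.5 times as follows. For 2 weeks against 1 week, T cells gave 16 with DESeq2, 20 without a low-count filter, 3 with a 5% mitochondrial limit, 3 without doublet removal, 42 with the timed libraries alone, 1 in thinned cells and 28 in non-cycling cells. The T cells without a subset gave 44 with the timed libraries alone and 3 thinned; regulatory T cells 3 with DESeq2, 7 with the timed libraries alone and 1 thinned; NK cells 17 with DESeq2 and 22 thinned. Monocytes gave 2 unfiltered, 21 with stricter gates, 14 with the timed libraries alone and 2 thinned. Type 1 dendritic cells gave 3 unfiltered and 1 with the timed libraries alone, type 2 gave 2, 11 (5% limit), 14 (stricter gates) and 8, and mature 2 and 5. Neutrophils gave 0 with DESeq2 and 2 thinned; macrophages 7 with DESeq2's size factors, 5 with DESeq2, 6 with the 5% limit, 8 without doublet removal, 9 with stricter gates and 8 thinned; fibroblasts 5 with DESeq2, 33 unfiltered, 10 with stricter gates and 0 thinned.

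For untimed against timed pairs, the T cells without a subset gave 7 with DESeq2, 10 unfiltered and 2 with stricter gates; regulatory T cells 0, 4 and 1; NK cells 11 unfiltered and 6 with stricter gates; monocytes 21, type 1 dendritic cells 5 and mature dendritic cells 5 unfiltered; type 2 dendritic cells 4 with DESeq2 and 13 unfiltered. For genotype, unfiltered fits gave 2 in T cells, 1 in type 1 dendritic cells, 1 in CD4 T cells and 2 in gamma-delta T cells, the last also 2 with the 5% limit and 2 without doublet removal. Without the pairing by collection as a block, 0 members were called for genotype in every class. Between classes, dropping the library block gave 3 for cycling T cells, 0 for macrophages, 14 for mature dendritic cells and 0 for NK cells. Thinned cells gave 12 for mature dendritic cells, 28 for B cells, 3 for NK cells and 1 for type 1 dendritic cells, the last also 6 with the 5% limit and 6 with stricter gates. NK cells gave 2 with stricter gates and 1 against non-cycling CD8 T cells. The cause of these moves was not tested.

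Leaving out 1 library or pair gave 0 to 0 (all cells and T cells), 3 to 25 (NK), 0 to 9 (T cells without a subset), 2 to 10 (regulatory T) and 0 to 0 (monocytes and the dendritic classes) for the weeks. For the untimed pair it gave 0 to 33 (all cells), 1 to 30 (T), 0 to 12 (NK and type 2 dendritic), 4 to 10 (monocytes), 0 to 7 (T cells without a subset), 0 to 5 (regulatory T), 0 to 8 (mature) and 0 to 2 (type 1 dendritic). For genotype it gave 0 to 2 in T cells, 0 to 1 in regulatory T cells and 0 to 0 elsewhere. Between classes it gave 39 to 54 (cycling T), 40 to 60 (monocytes against T), 56 to 61 (neutrophils), 26 to 35 (mature dendritic), 29 to 43 (B), 4 to 11 (macrophages), 2 to 6 (type 1 dendritic), 0 to 22 (NK) and 0 to 2 (regulatory T).

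With mitochondrial and ribosomal genes out of the denominator the summed level was 13845.7 CPM in CD8 T cells, 9398.2 in plasma cells, 18109.8 in type 1 dendritic cells, 15979.1 in cycling T cells, 15396.7 in cycling and 12080.4 in non-cycling CD8 T cells. Of single genes, Ndufa13 turned to 0.048 in thinned mature dendritic cells and Ndufab1 to 0.0897 in NK against non-cycling CD8 T cells. Another 9711 single-gene values kept direction and side of the threshold, 969 lost a call and 235 gained one. Stricter gates could not be fitted for untimed monocytes, type 2 dendritic cells, gamma-delta T cells and B cells, nor the 5% limit for type 2 dendritic cells (untimed) and B cells, nor leave-one-out in fits on 4 libraries.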
